A study of Mus musculus with 16 samples.

Results

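Sterol and fatty acid synthesis genes were followed in splenic CD4 T cells of mice carrying a B cell lymphoma. The 37 genes were listed by function and found by symbol in a table of 23479 genes. Of these, 18 encode enzymes of the sterol pathway, 9 make, elongate or desaturate fatty acids, 6 encode SREBP factors and genes that act with them, and 4 belong to the LXR and cholesterol efflux arm. All 37 were in the table, Msmo1 under its older symbol Sc4mol, and all 37 passed the filter on low counts.

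The groups were 5 C57BL/6 mice without tumours (control), 7 C57BL/6 mice at day 7 and 4 C57BL/6 mice at day 14 after transplant of Eu-Myc lymphoma cells. Eu-Myc cells carry a Myc transgene under an immunoglobulin heavy chain enhancer, which drives it in B lineage cells; the T cells are those of the host. CD4 T cells were enriched by immunomagnetic negative selection, in which other cell types are bound and removed, and each library was sequenced as bulk RNA. A library was taken as 1 mouse. Read counts in genes per library lay between 21610411 and 27340070 in controls, 14493764 and 24916411 at day 7, and 14731908 and 17067236 at day 14. All 4 day 14 libraries thus held fewer reads in genes than all 5 controls.

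Cells build cholesterol from acetyl-CoA through mevalonate, farnesyl diphosphate, squalene and lanosterol. When sterol in the endoplasmic reticulum is low, Scap carries SREBP factors to the Golgi, where proteases release the part that enters the nucleus and switches on sterol and fatty acid genes. When sterol is high, Insig proteins hold Scap back, and oxysterols activate LXR receptors, which switch on cholesterol export. Activated T cells are known to switch on SREBP target genes as they grow and divide.

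Promoter sequences are shown for 5 genes that reappear in the results, because binding sites for SREBP factors and for NF-Y, a factor that binds CCAAT boxes, lie close together in many sterol gene promoters. RefSeq's table for GRCm38.p6 held 29 of the 37 genes. Fdps, Fdft1, Sqle, Fads1, Scd1, Scd2, Stard4 and Abcg1 were not in it. Each line gives 100 bases, 5′ to 3′ on the gene's strand, and capitals mark matches to the motifs described after them.
Hmgcs1, chr13:119690166-119690265, plus strand: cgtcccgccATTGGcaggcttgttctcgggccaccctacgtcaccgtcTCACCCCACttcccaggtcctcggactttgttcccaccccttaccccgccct
Mvk, chr5:114444207-114444306, plus strand: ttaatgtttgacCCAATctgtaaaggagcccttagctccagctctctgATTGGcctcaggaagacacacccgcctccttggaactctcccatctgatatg
Cyp51, chr5:4104675-4104774, minus strand: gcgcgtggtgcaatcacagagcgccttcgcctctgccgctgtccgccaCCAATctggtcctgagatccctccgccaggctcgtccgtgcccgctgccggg
Insig1, chr5:28071162-28071261, plus strand: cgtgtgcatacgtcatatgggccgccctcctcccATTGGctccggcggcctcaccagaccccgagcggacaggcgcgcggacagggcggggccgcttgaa
Srebf2, chr15:82147086-82147185, plus strand: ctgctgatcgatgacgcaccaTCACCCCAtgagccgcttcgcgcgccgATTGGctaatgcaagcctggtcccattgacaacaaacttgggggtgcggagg

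The 3 motifs were searched on both strands of windows from 250 bases before to 50 bases after each start listed for a gene. Some genes had several starts, and a gene was counted if any of its windows held the motif. CCAAT was found for 22 of the 29 genes, against 41.058% of all 27025 genes in the RefSeq table. These were 14 of the 15 sterol pathway genes, 3 of 6 fatty acid genes, 4 of 5 SREBP regulators and 1 of 3 in the LXR arm. TCACNCCAC, a core of the sterol regulatory element, was found in 1 of the 29, Hmgcs1, against 1.436% of all genes. The shorter core TCACNCCA, which lies within the longer one and was added after the sequences had been seen, was found in 3 of 29, namely Hmgcs1, Msmo1 and Srebf2, against 4.969% of all genes. These counts describe letters in the windows, and no binding was measured.

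CD4 T cell markers summed to 2239 to 5068 CPM (read counts scaled to library size with TMM factors) in every library, against 5.68 to 17.6 CPM for the CD8 markers, and 5 of 5 found CD4 T markers were detected. Control libraries 1 and 2 stood apart, with neutrophil markers at 729 and 2072 CPM against 17.2 to 44.5 CPM in the other controls, and markers of dividing cells at 1682 and 3877 CPM against 263 to 445 CPM. At day 7, neutrophil markers lay between 1.2 and 32.1 CPM and dividing cell markers between 168 and 636 CPM. At day 14 these were 15.8 to 1378 CPM, with library 4 the high one, and 349 to 1819 CPM. In day 14 library 4, Mpo held 1226 CPM and Elane 146 CPM, while S100a8, S100a9 and Ngp held 2.96, 0.786 and 0.907 CPM. Control libraries 1 and 2 held Mpo at 376 and 646 CPM and S100a8 at 117 and 549 CPM. Summed B cell markers were 18.7 to 40.6 CPM at day 14 and 12.97 to 71.6 CPM in controls. In the day 14 libraries against control, the test used for the sterol genes called some markers lower. These were 3 of the 8 neutrophil markers (S100a8, S100a9 and Ngp) and 1 of the 7 B cell markers (Cd79a). Mpo and Elane were not called, and no marker of the 8 lists was called higher. Macrophage and monocyte markers summed to 25.5 to 99.1 CPM at day 14 and 9.28 to 591 CPM in controls, and 3 of 6 erythroid markers were at 0 in every library. Reads outside gene models made up 47.1% to 56.7% of all lines in controls, 54.6% to 68.0% at day 7 and 54.4% to 69.8% at day 14. Reads that aligned at more than 1 position made up 8.74% to 10.1% in controls, 6.88% to 7.91% at day 7 and 6.67% to 7.94% at day 14. Neither lymphoma group overlapped the controls in this share. The part of this share and of depth in the changes was not tested. In bulk RNA, fewer cells of a type and less RNA per cell cannot be told apart.

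Among the sterol pathway genes, Cyp51 (lanosterol demethylase) and Fdft1 (squalene synthase, which makes the first molecule committed to sterols) fell at day 14 against control, and 16 of the 18 enzymes had a negative log2 change. None of the 18 was called in the other direction. The neutrophil markers S100a8, S100a9 and Ngp, but not Mpo or Elane, and the B cell marker Cd79a were called lower in the same comparison. With control libraries 1 and 2, the ones high in neutrophil markers, left out, Cyp51 had a log2 change of -0.99 and kept its call. Fdft1 stayed lower in that fit but lost its call. The part of neutrophil and B cell RNA in these changes was not tested. At day 7 none of the 18 differed from control by the test. Calls are those of edgeR's quasi-likelihood test at an adjusted p (Benjamini-Hochberg over 18430 genes) below 0.05, and log2 changes carry their standard error (SE).

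Cyp51, on chromosome 5 (4081145 to 4104746, minus strand, GENCODE annotation of GRCm38), stood at 49.6, 44.7, 56.5, 47.3 and 54.9 CPM in the 5 control libraries. At day 7 it was 39.9, 36.8, 31.3, 41.8, 53.2, 45.6 and 44.6 CPM, and at day 14 it was 18.6, 39.7, 22.6 and 25.5 CPM. All 4 day 14 libraries lay below all 5 controls, and 3 of them below every day 7 library, with day 14 library 2 among the day 7 values. The fall was -0.93 ± 0.19 on the log2 scale at day 14 against control (edgeR adjusted p = 0.0182), to 0.526 of the control level. Against day 7 the change was -0.65 ± 0.17 (edgeR adjusted p = 0.0770), which did not pass. The day 7 value against control was -0.27 ± 0.16 (edgeR adjusted p = 0.342).

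Fdft1, on chromosome 14 (63145150 to 63179578, minus strand), held 24.3, 19.3, 17.3, 19.0 and 23.5 CPM in controls. It held 26.5, 18.3, 19.2, 23.6, 26.6, 22.0 and 23.7 CPM at day 7, and 12.9, 12.3, 14.2 and 15.4 CPM at day 14. The day 14 libraries lay below every library of both other groups. Fdft1 fell by 0.59 on the log2 scale (SE 0.16) at day 14 against control (edgeR adjusted p = 0.0459) and by 0.74 (SE 0.15) against day 7 (edgeR adjusted p = 0.0248). At day 7 against control the value was 0.14 ± 0.13 (edgeR adjusted p = 0.591). Exons of Fdft1 share 774 bases, 18.3% of its exon length, with Ctsb on the opposite strand, so without a stated strand setting reads in the shared bases cannot be assigned with certainty. Ctsb averaged 96.3 CPM at day 14 and 111 CPM in controls (-0.20 ± 0.18, edgeR adjusted p = 0.505). Cyp51 shares 3.8% of its exon bases with Akap9 on the opposite strand, and Fdps, Srebf1 and Tm7sf2 also share exon bases with another coding gene, which makes 5 of the 37.

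Of all genes tested, 1.8% were called lower and 1.33% higher at day 14 against control. With scaling by RLE the counts over all genes were 250 lower and 289 higher, and with library totals 100 lower and 699 higher, against 331 and 246 with TMM. Of the 18 sterol enzymes, 2 were called lower and 0 higher, and of all 37 genes the count was the same. At day 14 against day 7 the calls were 0.553% of all genes lower and 0.412% higher, against Fdft1 alone among the 37. At day 7 against control 0.0% of all genes were called lower and 0.0109% higher, and 0 of the 37. At an unadjusted p below 0.05, 3 of the 37 were lower and 2 higher at day 7, against 12.7% and 8.43% of all genes. At day 14 against control 16 were lower and 1 higher, against 11.8% and 10.5% of all genes. At day 14 against day 7 the counts were 11 and 2, against 8.27% and 6.54%. DESeq2 called 2 of the 37 at day 7, both lower (Fads2 and Scd1), where it called 1104 of all 18430 genes lower and 499 higher.

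Hmgcs1, the synthase that feeds the mevalonate steps, stood at 38.8, 36.7, 54.9, 52.3 and 50.3 CPM in controls, 49.9, 35.4, 33.4, 39.4, 48.9, 53.5 and 58.1 CPM at day 7, and 17.1, 42.0, 19.4 and 31.3 CPM at day 14. Day 14 libraries 1, 3 and 4 were below every control and library 2 was among them. The change at day 14 was -0.76 ± 0.23 against control (edgeR adjusted p = 0.0750) and -0.73 ± 0.22 against day 7 (edgeR adjusted p = 0.117). Neither passed the threshold.

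Upstream of squalene, Mvk (mevalonate kinase) held 8.63, 12.8, 8.93 and 12.3 CPM at day 14, against 14.5 to 25.5 CPM in controls, with no overlap (-0.77 ± 0.22, edgeR adjusted p = 0.0649). Idi1, the isomerase of isopentenyl diphosphate, had -0.68 ± 0.30 and Fdps, farnesyl diphosphate synthase, had -0.46 ± 0.24 (edgeR adjusted p = 0.189 and 0.266). Mvd, the decarboxylase of mevalonate diphosphate, had -0.50 ± 0.31 (edgeR adjusted p = 0.338). Pmvk, the kinase that acts after Mvk, averaged 19.2 ± 1.4 CPM at day 14 and 19.5 ± 3.5 CPM in controls (SD, n = 4 and 5). Acat2, the thiolase that joins acetyl-CoA units, averaged 7.47 ± 1.88 CPM at day 14 and 7.32 ± 1.90 CPM in controls. The approximate 95% interval of the Pmvk change was -0.38 to 0.35 and that of Acat2 -0.44 to 0.50.

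Beyond squalene, Sqle (squalene epoxidase) had -0.76 ± 0.26 at day 14 against control (edgeR adjusted p = 0.0984), and Lss (lanosterol synthase) -0.23 ± 0.24. Hsd17b7, a ketoreductase of sterol intermediates, held 5.87, 5.10, 5.76 and 6.53 CPM at day 14, below all 5 controls at 6.83 to 10.3 CPM (-0.54 ± 0.22, edgeR adjusted p = 0.161). Msmo1 (methylsterol oxidase) had -0.55 ± 0.23 and Nsdhl, which works beside it, -0.44 ± 0.17. Sc5d (a sterol desaturase), Dhcr7 (which reduces dehydrocholesterol to cholesterol) and Ebp (a sterol isomerase) had -0.32 ± 0.14, -0.28 ± 0.22 and -0.12 ± 0.19. None of these passed the threshold. Tm7sf2, a sterol reductase with 38 to 148 reads per library, had 0.36 ± 0.31 at day 14 and 0.69 ± 0.27 at day 7 against control (edgeR adjusted p = 0.479 and 0.149).

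**Figure D1:**
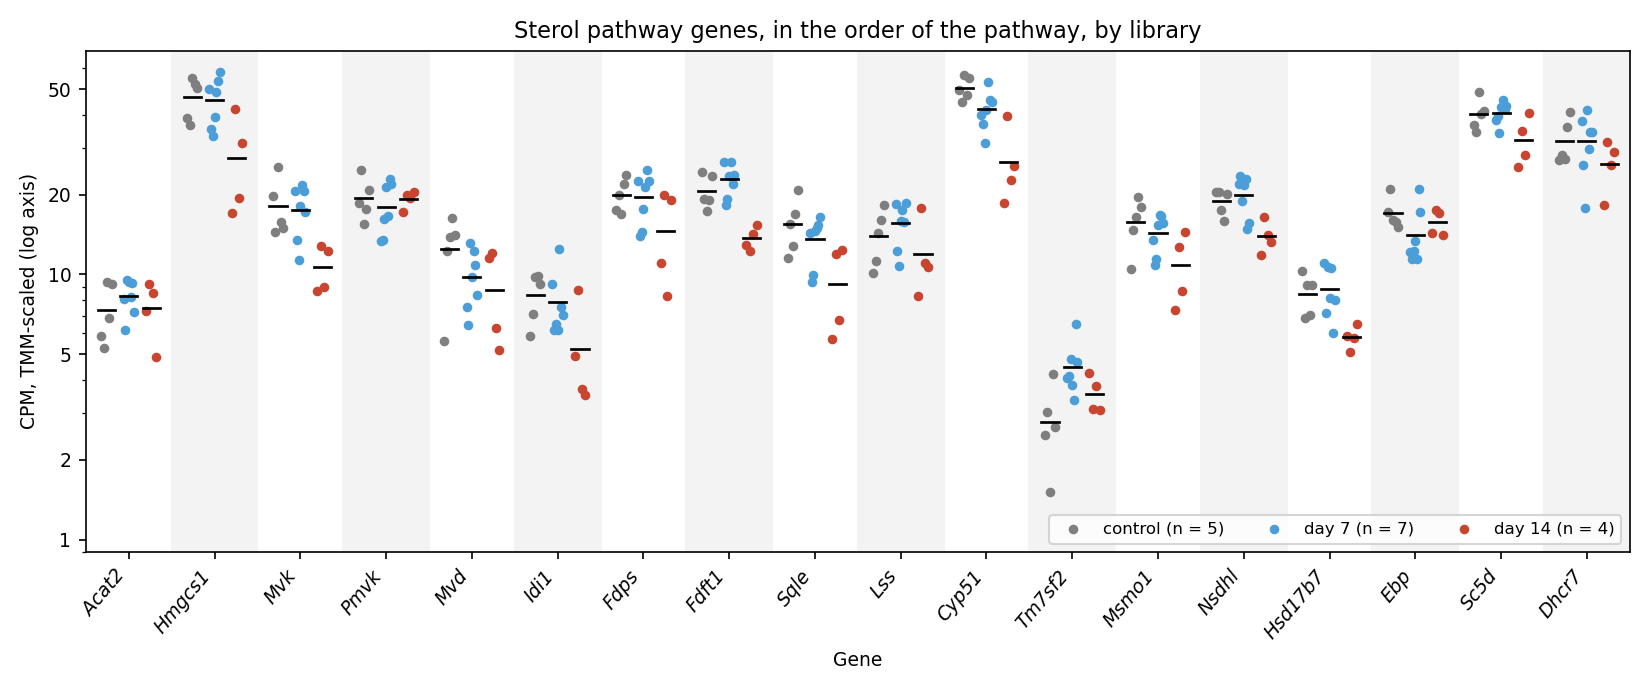
TMM-scaled CPM (log axis) of the 18 sterol pathway genes in pathway order, a point per library and a bar at the group mean, for control (n = 5), day 7 (n = 7) and day 14 (n = 4). Cyp51 and Fdft1 at day 14 lie below all controls, while Pmvk and Acat2 overlap.

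Across the 18 enzymes the median log2 change was -0.48 at day 14 against control, where the median of all genes was 0.12 and 42.3% of all genes were negative. At day 14 against day 7 it was -0.42, with 16 of 18 negative, beside 0.12 and 40.6% for all genes; these comparisons share the day 14 libraries. At day 7 against control it was -0.03 with 11 of 18 negative, beside 0.07 and 43.8%. Every library of day 14 was below every control for Mvk, Fdft1, Cyp51 and Hsd17b7, which is 4 of 37 genes, against 2.85% of all genes. No member was above every control at day 14, against 5.24% of all genes. Against day 7 only Fdft1 had all day 14 libraries lower, against 2.78% of all genes, and none had all higher, against 1.77%.

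Per kilobase of exon, Cyp51, Pmvk and Hmgcs1 were the highest of the 18 in controls, at 11.5 ± 1.1, 11.4 ± 2.1 and 10.1 ± 1.8 CPM per kb (SD, n = 5). These 3 levels did not differ beyond their spread. At day 14 Pmvk stood first at 11.2 ± 0.8 CPM per kb, with Sc5d and Ebp at 6.63 ± 1.39 and 6.80 ± 0.78 and Cyp51 and Hmgcs1 at 6.03 ± 2.08 and 5.97 ± 2.51 CPM per kb (SD, n = 4). The lowest in controls was Tm7sf2 at 0.631 ± 0.222 CPM per kb.

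The day 14 libraries with the lowest sterol levels were those with the largest share of reads outside gene models. As the mean log2(CPM + 1) of the 18 genes, day 14 libraries 1 to 4 stood at 3.52, 4.01, 3.59 and 3.77, and their shares of reads outside gene models were 69.8%, 54.4%, 66.3% and 62.3%. Day 14 library 2, the highest of the 4, had the lowest share. Markers of dividing cells in the same libraries summed to 349, 1117, 901 and 1819 CPM. Day 7 libraries 2 and 3, at 3.85 and 3.91, had shares of 62.9% and 68.0%; the other day 7 libraries stood at 4.15 to 4.26, with shares of 54.6% to 61.7%, the highest of these shares in library 5 at 4.26. Controls stood at 3.97 to 4.29. With that share as a covariate, the Cyp51 change at day 14 against control was -0.48 ± 0.19 (edgeR adjusted p = 0.607) and that of Fdft1 was -0.45 ± 0.22 (edgeR adjusted p = 0.677), the median of the 18 was -0.16, and 0 of 37 genes were called. Across all genes 0 were then called lower and 1 higher. All 4 day 14 shares were above those of 4 of the 5 controls, so the share and the group cannot be fully told apart.

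**Figure D2:**
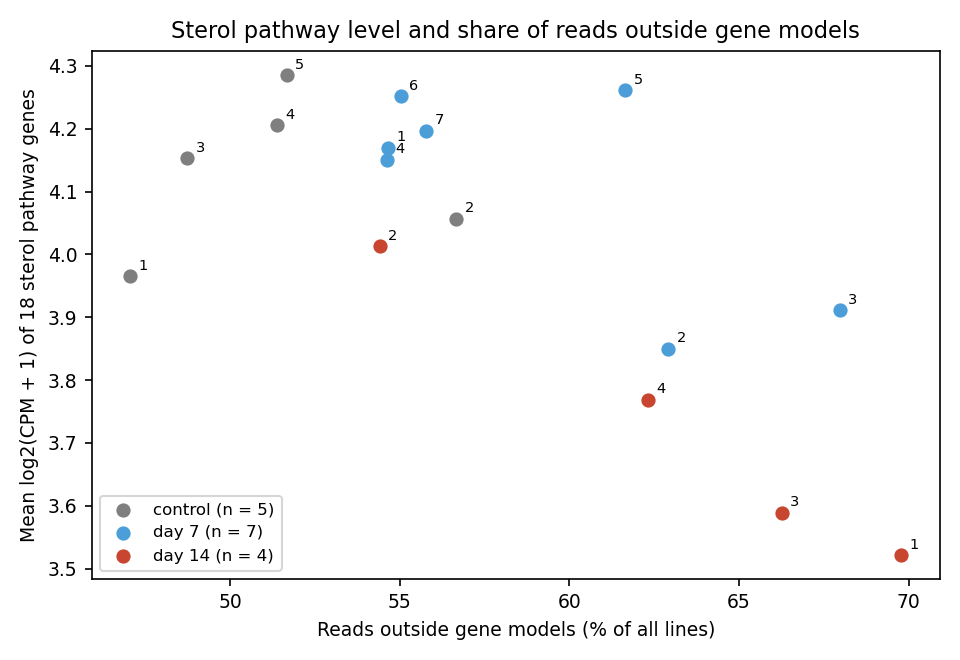
Mean log2(CPM + 1) of the 18 sterol pathway genes (y) against reads outside gene models as a percentage of all lines (x), a numbered point per library. Day 14 libraries 1 and 3, at 3.52 and 3.59, have shares of 69.8% and 66.3%, and day 14 library 2, at 4.01, has 54.4%.

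The calls changed when single libraries were left out. The Cyp51 call at day 14 against control was lost without day 14 library 1, 3 or 4 (edgeR adjusted p = 0.0836, 0.0860 and 0.0564) or control library 3 (0.0645). The Fdft1 call in that comparison held only without day 7 library 2 or control library 2, with log2 changes of -0.66 to -0.53 over the 16 fits that leave out 1 library. Against day 7, the Fdft1 call was lost without day 14 library 1, 3 or 4 or day 7 library 1, 4 or 5 (edgeR adjusted p = 0.0538 to 0.0877). Without day 14 library 2, the calls at day 14 against control were 7, with Hmgcs1 at -1.05, Mvk at -0.87, Idi1 at -1.05, Cyp51 at -1.19, Acly at -0.43 and Srebf2 at -0.71 lower and Abca1 at 0.74 higher. Calls in that comparison numbered 6 without control library 2 and 4 without control library 5, and without day 14 library 4 Abca1 was the call. Against day 7, the day 14 calls were 4 without day 14 library 2 or control library 2, and 2 (Fdft1 and Insig1) without day 7 library 7 or control library 3 or 5. With control libraries 1 and 2 both left out, Cyp51, Hmgcs1 (-0.94), Srebf2 (-0.71) and Elovl5 (-0.55) were called at day 14 against control and Fdft1 was not (-0.54, edgeR adjusted p = 0.0669). Against day 7, Fdft1, Cyp51, Srebf2 and Insig1 were then called, all lower. Over all 19144 genes tested in that fit, 486 were called lower and 456 higher at day 14 against control. Against day 7 the counts were 450 and 388. Calls over all genes in the fits that leave out 1 library are not given here, so the member counts of those fits have no share beside them.

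None of the 9 fatty acid genes passed the test in any comparison, and all 9 had a negative log2 change at day 7 against control. Fasn, fatty acid synthase, on chromosome 11 (120805846 to 120824547, minus strand), held 227, 203, 242, 242 and 249.9 CPM in controls, a lowest, median and highest of 183, 224 and 249 CPM at day 7, and 188, 257, 203 and 202 CPM at day 14. All 3 groups overlapped, and the change at day 14 against control was -0.13 ± 0.11 (edgeR adjusted p = 0.482, approximate 95% interval -0.35 to 0.09). Acly, which makes cytosolic acetyl-CoA from citrate, averaged 233 ± 12 CPM in control libraries, 204 ± 14 CPM at day 7 and 188 ± 32 CPM at day 14 (SD, n = 5, 7 and 4). Its 7 day 7 libraries, at 184 to 219 CPM, all lay below the 5 controls at 220 to 248 CPM (-0.19 ± 0.09, edgeR adjusted p = 0.235). That made 1 of 37 genes lower without overlap at day 7, against 0.982% of all genes, and 0 higher, against 0.988%.

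Acaca, the carboxylase that makes malonyl-CoA, averaged 36.6 ± 6.3 CPM at day 14 and 39.8 ± 7.1 CPM in controls. The elongase Elovl5 averaged 98.0 ± 11.01 CPM at day 14 and 125 ± 25 CPM in controls (-0.35 ± 0.13, edgeR adjusted p = 0.120). The elongase Elovl6 held 25.6 to 41.1 CPM in controls, 23.2 to 34.9 CPM at day 7, and 20.4, 50.2, 36.4 and 39.9 CPM at day 14. The desaturases Fads1 and Scd2 averaged 18.7 and 64.7 CPM at day 14 and 17.9 and 61.8 CPM in controls, differences smaller than their SDs of 5.04 to 15.9 CPM.

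Scd1 and Fads2, desaturases with few reads, had the widest spread. Scd1 held 14.4, 11.4, 6.81, 5.62 and 1.76 CPM in controls, 0.229 to 2.78 CPM at day 7 with a median of 1.77 CPM, and 2.82, 2.98, 3.12 and 1.69 CPM at day 14. Fads2 held 10.5, 31.4, 3.35, 2.56 and 1.203 CPM in controls, 0.458 to 4.17 CPM at day 7, and 1.55, 8.56, 1.14 and 6.35 CPM at day 14. Both were highest in control libraries 1 and 2, the libraries with high neutrophil and dividing cell markers. At day 7 against control the changes were -2.37 ± 0.49 for Scd1 and -2.58 ± 0.74 for Fads2 (edgeR adjusted p = 0.0709 and 0.0805). Without control libraries 1 and 2 they were -1.61 ± 0.53 and -0.54 ± 0.69 (edgeR adjusted p = 0.313 and 0.761), and Fads2 at day 14 against control was 0.89 ± 0.79 in place of -1.16 ± 0.86. Without control library 5, both were called at day 7 (edgeR adjusted p = 0.0190 for Scd1 and 0.0297 for Fads2). Scd1 was also called without day 14 library 4 (edgeR adjusted p = 0.0499). Scd1 and Scd2 are close paralogs. Reads that aligned at more than 1 position were counted for no gene, so reads from sequence they share may be missing from both. The part of other cell types in these values was not tested.

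The median log2 change of the 9 fatty acid genes was -0.20 at day 7 and -0.13 at day 14 against control, and 0.27 at day 14 against day 7. Negative changes numbered 9, 6 and 4 of 9. Beside them stand medians over all genes of 0.07, 0.12 and 0.12.

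**Figure D3:**
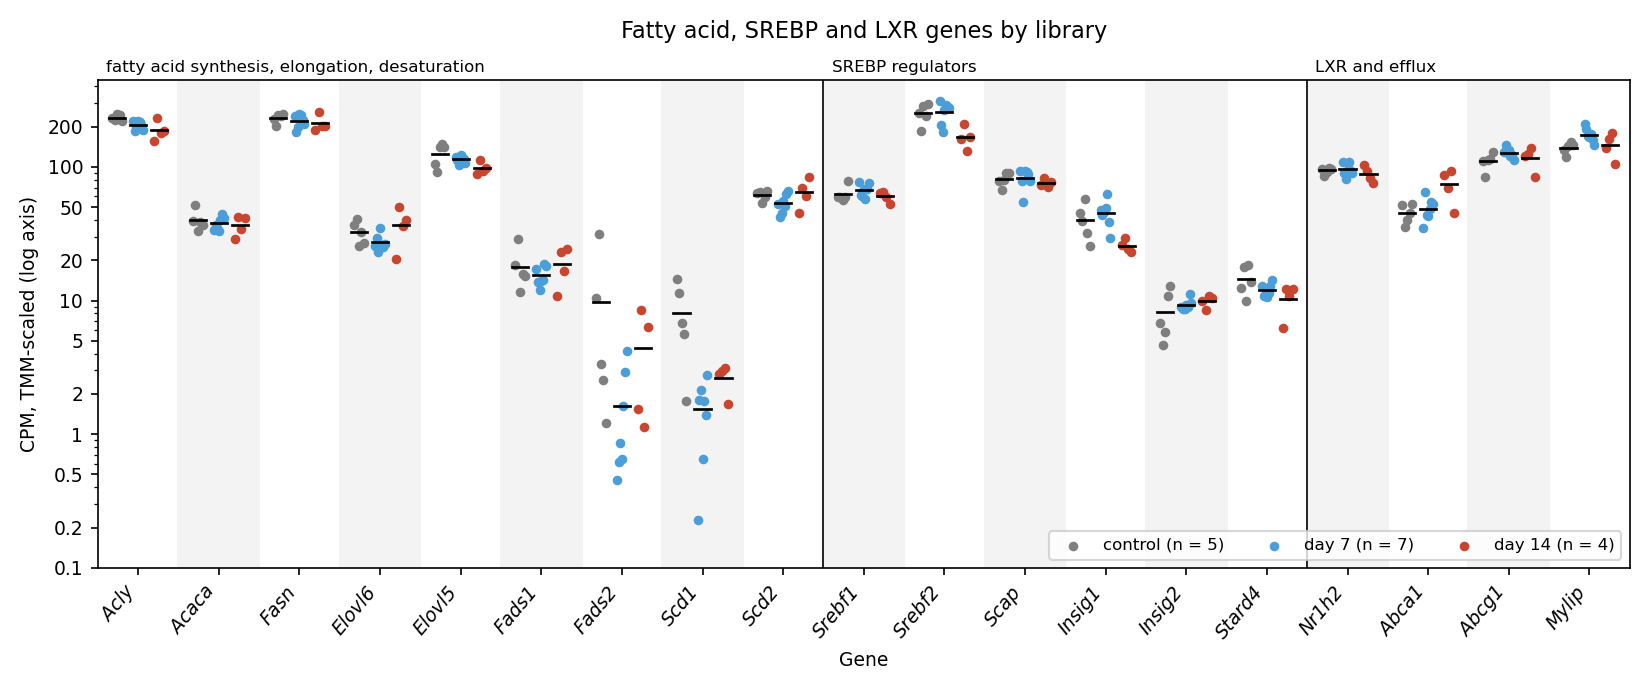
TMM-scaled CPM (log axis) of the 9 fatty acid genes, 6 SREBP regulators and 4 LXR and efflux genes, a point per library and a bar at the group mean, for control (n = 5), day 7 (n = 7) and day 14 (n = 4). Fasn overlaps in all groups, Scd1 and Fads2 spread widely in controls, and 3 of 4 day 14 libraries of Abca1 lie above all other libraries.

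Among the SREBP regulators, Srebf2 and Insig1 had the lowest log2 changes at day 14 and neither passed the test. Srebf2, which encodes the SREBP factor that acts mainly on sterol genes, lies on chromosome 15 (82147181 to 82205379, plus strand). It held 254, 187, 286, 242 and 292 CPM in controls, 311, 204, 182, 266, 289, 280 and 275 CPM at day 7, and 163, 207, 132 and 167 CPM at day 14. Day 14 libraries 1, 3 and 4 lay below every other library, and library 2 was above 1 control and 2 day 7 libraries. The change was -0.59 ± 0.17 against control (edgeR adjusted p = 0.0578) and -0.63 ± 0.16 against day 7 (edgeR adjusted p = 0.0637). With the share of reads outside gene models as a covariate, the change against control was -0.11 ± 0.17 (edgeR adjusted p = 0.918).

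Insig1, a sterol-regulated anchor of Scap and itself an SREBP target, held 44.9, 39.2, 57.3, 31.9 and 25.7 CPM in controls. It held 47.3, 43.9, 46.1, 49.3, 62.7, 38.7 and 29.2 CPM at day 7 and 26.1, 29.3, 24.3 and 23.2 CPM at day 14. The day 14 libraries lay below 4 of the 5 controls and 6 of the 7 day 7 libraries, and overlapped control library 5 and day 7 library 7. The change was -0.82 ± 0.20 against day 7 (edgeR adjusted p = 0.0610) and -0.63 ± 0.21 against control (edgeR adjusted p = 0.0979). With the covariate, the change against control was -0.59 ± 0.30 (edgeR adjusted p = 0.682).

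Srebf1, which encodes the factor that acts mainly on fatty acid genes, averaged 62.4 ± 8.8 CPM in control libraries, 66.9 ± 7.7 CPM at day 7 and 60.4 ± 5.4 CPM at day 14 (SD, n = 5, 7 and 4). Scap averaged 75.9 ± 5.6 CPM at day 14 and 81.0 ± 9.5 CPM in controls. The approximate 95% intervals of the day 14 change against control were -0.28 to 0.19 for Srebf1 and -0.36 to 0.17 for Scap. Insig2, a relative of Insig1, averaged 9.89 ± 1.03 CPM at day 14 and 8.15 ± 3.49 CPM in controls. Stard4, a carrier of cholesterol in the cytosol, averaged 10.4 ± 2.8 CPM at day 14 and 14.5 ± 3.6 CPM in controls (-0.48 ± 0.22, edgeR adjusted p = 0.201). Of the 6 regulators, 1 had a negative change at day 7 against control, with a median of 0.07, and 5 had one at day 14, with a median of -0.29. At day 14 against day 7 the median was -0.18, with 5 of 6 negative. These medians moved with the settings: at day 7 to -0.07 with control libraries 1 and 2 left out and 0.22 with the covariate, at day 14 against control to -0.095 with library totals, -0.0081 with the covariate and -0.16 without control library 4, and at day 14 against day 7 to -0.026 with library totals.

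In the LXR arm none of the 4 genes passed the test in any comparison. Abca1, the transporter that loads cholesterol onto apolipoproteins, held 51.9, 35.2, 40.2, 45.2 and 52.3 CPM in controls. It held 34.7 to 64.9 CPM at day 7 with a median of 48.1 CPM, and 87.5, 69.8, 92.9 and 45.0 CPM at day 14. Day 14 libraries 1, 2 and 3 were above every control and day 7 library. Day 14 library 4, the one high in Mpo and Elane but not in S100a8, S100a9 or Ngp, was among the controls. The change at day 14 was 0.72 ± 0.19 against control (edgeR adjusted p = 0.0513) and 0.60 ± 0.18 against day 7 (edgeR adjusted p = 0.114). With scaling by RLE or by library totals it passed against control, at 0.78 and 0.93. Over all genes, RLE scaling called 289 higher and 250 lower there and library totals 699 and 100, against 246 and 331 with TMM. Abca1 was not called with the share of reads outside gene models as a covariate, nor on the compared groups alone. Nor was it called with the replicate number as a block.

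Mylip, an LXR-induced ubiquitin ligase that sends lipoprotein receptors to degradation, lies on chromosome 13 (45389742 to 45412022, plus strand). It held 134, 118, 143, 153 and 145 CPM in controls, 208, 193, 171, 167, 175, 158 and 146 CPM at day 7, and 139, 163, 178 and 104 CPM at day 14. Of the day 7 libraries, 1 to 6 lay above every control and library 7 within the control range; day 14 library 1 also lay within it. The change at day 7 against control was 0.33 ± 0.12 (edgeR adjusted p = 0.120), and at day 14 it was 0.08 ± 0.14 (edgeR adjusted p = 0.740). Abcg1, a second cholesterol exporter, averaged 110 ± 16 CPM in control libraries, 128 ± 11 CPM at day 7 and 117 ± 23 CPM at day 14. Nr1h2, which encodes LXR beta, averaged 93.9 ± 5.1 CPM in control libraries, 96.6 ± 10.7 CPM at day 7 and 88.3 ± 12.1 CPM at day 14. The median change of the 4 was 0.17 at day 7 and 0.08 at day 14 against control, and -0.13 at day 14 against day 7.

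**Figure D4:**
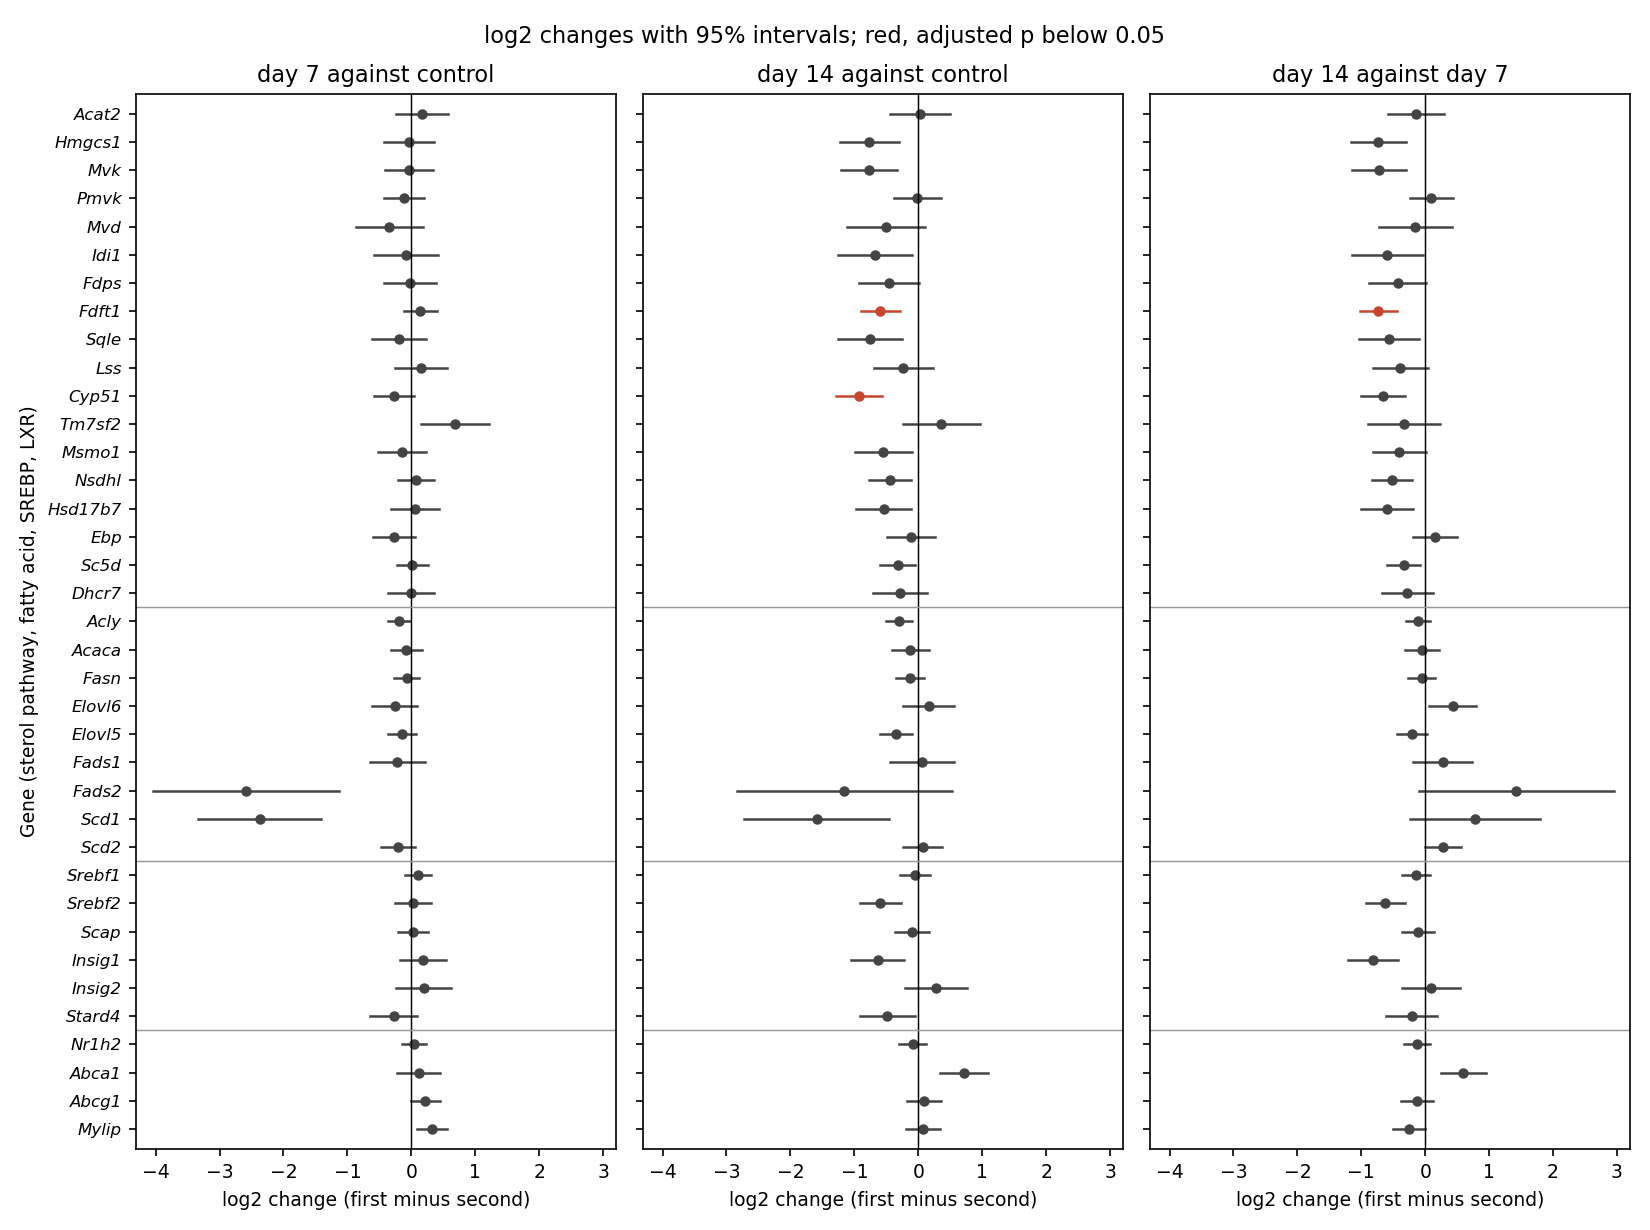
log2 changes (x) of the 37 genes (y, grouped as sterol pathway, fatty acid, SREBP and LXR), with approximate 95% intervals from a normal multiplier. The 3 panels show day 7 against control, day 14 against control and day 14 against day 7. Red marks an adjusted p below 0.05. Cyp51 (-0.93) and Fdft1 (-0.59) are red at day 14 against control, and Fdft1 (-0.74) at day 14 against day 7.

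A wider set of 71 genes in 5 lists by function, of which 70 were tested, gave 5 calls at day 14 against control, all lower. Of all genes, 1.8% were called lower and 1.33% higher there. At day 14 against day 7 the set gave 1 call, where 0.553% of all genes were called lower and 0.412% higher. At day 7 against control the set gave 0 calls, where 0.0% of all genes were called lower and 0.0109% higher. An unadjusted p below 0.05 marked 13 lower and 3 higher of the 70 at day 7, against 12.7% and 8.43% of all genes. It marked 19 lower and 3 higher at day 14 against control, against 11.8% and 10.5% of all genes. At day 14 against day 7 it marked 13 and 3, against 8.27% and 6.54%. Of 13 genes of the rest of the sterol and isoprenoid pathways, Nus1, a subunit of the enzyme that makes dolichol precursors, fell to 34.3, 52.1, 35.2 and 44.5 CPM at day 14, against 44.2 to 72.1 CPM in controls (-0.60 ± 0.15, edgeR adjusted p = 0.0434). Of 12 uptake and storage genes 3 fell, among them Npc2 and Lipa, which free and move lysosomal cholesterol. Npc2 averaged 183 ± 37 CPM at day 14 and 269 ± 21 CPM in controls (-0.55 ± 0.12, edgeR adjusted p = 0.0273). Lipa averaged 48.7 ± 5.7 CPM at day 14 and 72.2 ± 13.5 CPM in controls (-0.57 ± 0.13, edgeR adjusted p = 0.0316). Of 22 tested lipid genes, Acss2, which makes acetyl-CoA from acetate, fell to 34.1, 40.8, 34.7 and 33.1 CPM at day 14, against 35.3 to 60.8 CPM in controls (-0.55 ± 0.14, edgeR adjusted p = 0.0436) and 46.4 to 59.9 CPM at day 7 (-0.56 ± 0.13, edgeR adjusted p = 0.0482). None of 12 SREBP processing genes and none of 11 LXR targets and partners passed in any comparison; at day 14 against control an unadjusted p below 0.05 marked 3 lower and 1 higher of the 12, and 4 lower and 0 higher of the 11, against 11.8% and 10.5% of all genes. Over 26 other settings the day 14 calls against control held in 9 for Nus1, 15 for Npc2, 13 for Lipa and 5 for Acss2.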

How the data were processed

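Bulk RNA was sequenced from 16 spleen CD4 T cell libraries. Per the labels' protocols, extraction used a Macherey-Nagel kit, and 100 ng of RNA went into a NuGEN mouse kit. HTSeq 0.6.1, cutadapt 1.8.1, bcl2fastq 2.20.0.422 and build mm10 come from the submitters' processing notes. The aligner, annotation, read layout and strand setting are not given in the sources used here. The authors deposited raw counts for 23479 genes, matched to samples by the code in each description. The 5 lines that name no gene stayed out of library sizes and tests; reads outside gene models were 47.1% to 69.8% of all lines.

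The main test was edgeR 4.0.16 in R 4.3.3 (TMM, filterByExpr, quasi-likelihood over all 16 libraries, 2-sided, threshold 0.05), which kept 18430 genes, removed 5049 and gave a common coefficient of variation of 54.5%. CPM is TMM-scaled. SE is the absolute log2 change over the square root of F. The 95% intervals come from a normal multiplier of the SE, so they are approximate and narrower than the test would give. Lengths and positions are GENCODE M21. Alternatives used DESeq2 1.42.0 and limma 3.58.1. Scripts were tested on simulated data. P-values measure the spread between mice, and counting error is covered only as part of it. Replicate numbers mark different mice.

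The members and lists were chosen with earlier results of these data known. Called genes and the highest mean CPM of each of the 4 lists were named with values per library; from the wider lists, called genes. Other members are given by group mean or range. The name of 1 called uptake gene is not reported here.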

Additional observations from a re-analysis of the deposited data

Results flagged for a closer look

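Group values of the 37 genes were screened for a library far from the others of its group (111 groups, of which chance flags about 1 in 20), and 3 were found. Srebf1 stood at 78.0 CPM in control library 5, against 56.6 to 59.3 CPM in the other controls. Scap stood at 54.8 CPM in day 7 library 3, against 77.9 to 92.5 CPM in the other day 7 libraries. Insig2 stood at 11.2 CPM in day 7 library 6, against 8.59 to 9.57 CPM. Fdft1 differed between the lymphoma times themselves, with a log2 change of -0.74 at day 14 against day 7 (edgeR adjusted p = 0.0248; all 4 day 14 libraries below all 7 of day 7).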

How the results depend on the processing

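At day 7 against control, 0 of 37 genes were called in the reported fit and 2 by DESeq2. Leaving out 1 library at a time gave 0 to 2. At day 14 against control, the reported 2 became 1 with no filter beyond 1 read, 1 with a filter of 1 CPM in 4 libraries, 6 by DESeq2, 5 by limma-voom, 4 with control libraries 1 and 2 left out, 0 with the share of reads outside gene models as a covariate, 0 on the compared groups alone, and 0 to 7 leaving out 1 library; the cause was not tested. RLE scaling and library totals each gave 2, which were Cyp51 and Abca1. At day 14 against day 7, the reported 1 became 0 with library totals, 8 by DESeq2, 4 with control libraries 1 and 2 left out, 0 with the covariate, 3 on the compared groups alone, and 0 to 4 leaving out 1 library. Cyp51 stayed negative at day 14 against control in all 26 settings (-1.19 to -0.48), as did Fdft1 (-0.66 to -0.39). Library totals moved the median of all genes at day 14 against control to 0.32, beside a sterol median of -0.29 and an LXR median of 0.29. With the covariate the sterol median was 0.16 at day 7. Calls over all genes moved too: at day 14 against control, 331 lower and 246 higher became 699 and 852 by DESeq2, 465 and 538 by limma-voom, 486 and 456 with control libraries 1 and 2 left out, 0 and 4 on the compared groups alone, and 21 and 25 with the replicate block. Between day 14 and day 7, 102 and 76 became 361 and 354 by DESeq2, 450 and 388 with control libraries 1 and 2 left out, 396 and 316 on the compared groups alone, 41 and 150 with library totals, and 46 and 39 with the covariate.

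With the replicate number as a block, 0 of 37 genes were called in each of the 3 comparisons (at day 14 against control, Cyp51 -0.90, edgeR adjusted p = 0.0691). Deviations of same-numbered libraries correlated at -0.34 to 0.30. No range for libraries of unlike number was made, so these values do not decide whether the numbers pair the mice. Genes with few reads, such as Scd1 with 4 to 385 reads per library, are limited by depth.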
